A study of Mus musculus with 6 samples.

Results

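The Hox genes are homeobox transcription factors that lie in 4 clusters, Hoxa to Hoxd. Every probe whose array annotation names a gene of these clusters was taken, which gave 50 of the 25697 probes on the array. They cover 38 of the 16593 genes named on the array: 10 genes of Hoxa, 10 of Hoxb, 9 of Hoxc and 9 of Hoxd, on chromosomes 6, 11, 15 and 2. A single probe stood for each of 29 genes, and the other 9 genes shared 21 probes. The choice of probes used symbols only, not measured values.

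Gene expression was read from 6 Illumina arrays, with 3 groups of mouse cells and 2 arrays a group. The piPSC group holds pluripotent stem cells induced with recombinant proteins. The ES group holds R1 embryonic stem cells, kept, per the labels, with serum and the cytokine LIF on a layer of irradiated feeder MEFs. The OG2-MEF group holds fibroblasts from E13.5 embryos that carry GFP under the Oct4 promoter and were grown on gelatin. The labels do not say which part of the embryo the fibroblasts came from, nor whether the piPSC were grown on feeders. Arrays of a group are named biological replicates, but whether they were separate cultures or clones is not stated. The p-values therefore rest on the spread between these samples alone, some of it possibly technical.

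In the vertebrate embryo, Hox genes are switched on in the order in which they stand along the chromosome, and they give cells their position along the head-to-tail axis and the limbs. Low numbers mark the anterior end of a cluster and high numbers its posterior end, and genes with the same number in different clusters are paralogues. Fibroblasts taken from different parts of the body keep different sets of active Hox genes in culture. In pluripotent cells the clusters are known as classic Polycomb targets, carrying both the repressive mark on lysine 27 of histone H3 and active marks.

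Many Hox promoters are rich in CG dinucleotides, the sites of DNA methylation and a sequence feature linked to Polycomb binding. RefSeq windows of the 250 bases before a gene's start (build GRCm38.p6) were at hand for 22 of the 38 genes, 24 windows in all. Of Hoxb only Hoxb1, Hoxb4 and Hoxb8 had a window, and of Hoxc only Hoxc4, so the windows stand mainly for Hoxa and Hoxd. The 24 windows held a median of 12.5 CG dinucleotides, with a range of 2 to 35, against a median of 6 in all 32851 promoter windows. Printed here, 5′ to 3′ with every CG in capitals, are, for Hoxa and for Hoxd, the window with most CG among genes called lower in piPSC than in OG2-MEF, and, for contrast, those of the posterior end of the same clusters. Hoxa5 lies at chr6:52204588-52204837 on the minus strand, Hoxd10 at chr2:74691641-74691890 on the plus strand, Hoxa13 at chr6:52260881-52261130 on the minus strand and Hoxd13 at chr2:74667975-74668224 on the plus strand.
Hoxa5: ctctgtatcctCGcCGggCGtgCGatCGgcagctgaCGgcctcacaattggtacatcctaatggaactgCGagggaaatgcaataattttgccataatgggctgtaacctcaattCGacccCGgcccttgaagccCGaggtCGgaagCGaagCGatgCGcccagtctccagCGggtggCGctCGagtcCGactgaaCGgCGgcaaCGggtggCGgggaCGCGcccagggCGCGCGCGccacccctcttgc
Hoxd10: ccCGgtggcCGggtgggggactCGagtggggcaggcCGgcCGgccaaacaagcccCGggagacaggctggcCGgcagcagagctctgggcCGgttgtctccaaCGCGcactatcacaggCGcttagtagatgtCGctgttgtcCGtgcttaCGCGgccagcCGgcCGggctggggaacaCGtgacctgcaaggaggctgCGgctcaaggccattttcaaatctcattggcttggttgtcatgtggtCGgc
Hoxa13: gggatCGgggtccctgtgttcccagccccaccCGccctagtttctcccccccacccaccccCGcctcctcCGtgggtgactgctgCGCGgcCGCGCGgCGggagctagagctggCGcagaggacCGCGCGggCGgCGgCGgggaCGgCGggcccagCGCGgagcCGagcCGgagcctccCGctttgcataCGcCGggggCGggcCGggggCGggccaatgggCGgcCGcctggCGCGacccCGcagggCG
Hoxd13: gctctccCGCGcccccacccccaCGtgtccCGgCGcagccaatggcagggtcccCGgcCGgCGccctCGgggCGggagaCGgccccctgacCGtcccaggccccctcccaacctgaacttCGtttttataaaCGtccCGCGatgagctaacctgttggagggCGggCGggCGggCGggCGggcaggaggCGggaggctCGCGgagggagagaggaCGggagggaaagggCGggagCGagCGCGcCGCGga

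The Hoxa5 window holds 28 CG, a number that 7.61% of all promoter windows reach. The Hoxd10 window holds 20, which 17.9% reach. At the posterior ends, Hoxa13 holds 35 (2.97% of windows) and Hoxd13 holds 31 (5.19%). Windows of the 9 genes called lower in piPSC than in OG2-MEF ranged from 3 to 28 CG with a median of 7, and the 13 windows of the 11 genes too dim to test ranged from 2 to 31 with a median of 13. The letters TGATTGAT, searched on both strands as the site that Hox proteins bind together with Pbx partners, were found in 2 of the 24 windows, those of Hoxa2 and Hoxd11, and in 0.67% of all windows. They hold no CG and so do not overlap the first motif. DNA methylation and protein binding were not measured.

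All levels below are log2 of background-corrected, quantile-normalised intensity. A level compares arrays for the same probe and not different probes, since probes differ in brightness. A probe counted as above background where the deposited detection p-value was under 0.05. Values below about 5 on this scale are at or under the dimmest detected probes, which lay between 4.94 and 5.29 on the 6 arrays. Differences were tested with limma for all 14533 probes above background on both arrays of at least 1 group, with Benjamini-Hochberg adjustment over all of them. A call needed an adjusted p under 0.05 and a change of at least 2-fold.

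Total raw signal ranged from 13019817 to 19598206 per array, and 46.87% to 52.41% of probes were above background. ES replicate 2 stood apart: it had the lowest of these shares, and over all probes tested the SD of the difference between the ES arrays was 0.645, against 0.21 for piPSC and 0.193 for OG2-MEF. The tested Hox probes differed between arrays of a group by a median of 0.15 in piPSC, 0.29 in ES and 0.14 in OG2-MEF, and by 0.72 at most. All 10 pluripotency markers on a fixed list were called higher in piPSC and in ES than in OG2-MEF, with summed signals of 94370 and 94040 in piPSC, 97990 and 85380 in ES and 268.8 and 252.3 in OG2-MEF. Of 11 tested fibroblast markers, 10 were called lower and 1 higher in both. OG2-MEF also held signal of some muscle and neural markers, and in each list 3 of 4 tested were lower in piPSC and in ES. Lower were Acta1, Myl1 and Des of muscle, and Nes, Map2 and Ncam1 of the neural list. Other tested probes of Map2 had no call, at log2 fold changes of -0.53 and -0.77 in piPSC and -0.6 and -0.87 in ES. Myog and Tubb3, near the limit of detection, had no call. Myod1, Sox1 and Pax6 were above background on no array. In bulk RNA, fewer cells of a type and less RNA per cell cannot be told apart.

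Hox signal in the fibroblasts came mostly from positions 1 to 10. In OG2-MEF, 24 probes of 20 genes were above background on both arrays, compared with 17 probes in piPSC and 16 in ES. Of the 38 probes for positions 1 to 10, 23 were above background on both OG2-MEF arrays. Of the 12 probes for positions 11 to 13, which in the embryo act in the tail, the distal limb and the genital bud, only 1 probe of Hoxa13 was. On none of the 6 arrays were 21 probes above background. For Hoxa6, Hoxb8, Hoxc5 and Hoxc8, which lie among genes that were detected, the single probe was not above background on any array, and neither were both probes of Hoxa10. A dim probe sets only an upper bound on the signal of its own target.

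**Figure D1:**
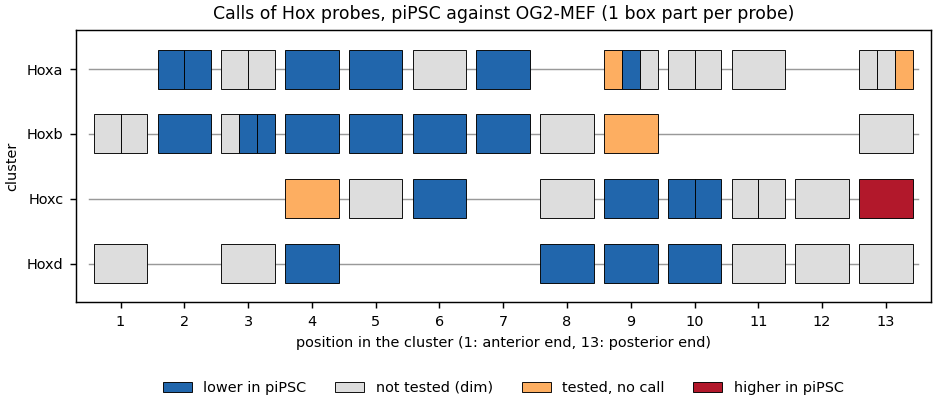
Hox genes by cluster (rows) and position number (columns), coloured by the call in piPSC against OG2-MEF, with 1 part of a box per probe. Genes called lower lie at positions 2 to 10, Hoxc13 is the 1 gene called higher, and most of positions 11 to 13 were too dim to test.

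Most tested Hox probes were lower in piPSC than in OG2-MEF. Of the 26 tested, 21 probes of 18 genes were called lower, 1 (Hoxc13) was called higher and 4 had no call. Over all 14533 probes, 21% were called lower and 19% higher, 40% in all. The median log2 fold change was -2.28 over the tested Hox probes, against 0.017 over all probes tested. Without the filter on dim probes it was -0.3 over all 50 Hox probes and -0.003 over all probes on the array. Of the 26, 9 entered the test only through OG2-MEF and 2 only through piPSC and ES, a choice that favours a difference in them. A further 14 were above background in all 3 groups and 1 in piPSC and OG2-MEF. Calls of lower expression came from every cluster: 6 of 8 tested probes in Hoxa, 7 of 8 in Hoxb, 4 of 6 in Hoxc and 4 of 4 in Hoxd.

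ES cells, set against the same 2 OG2-MEF arrays, had 22 probes of 18 genes called lower and 1 higher, with 3 not called. Over all probes, 23.4% were called lower and 23.2% higher, 46.5% in all. With no threshold on the fold, 23 of the 26 Hox probes passed in piPSC, where 65.2% of all probes did, and 24 passed in ES, where 71.5% did. By cluster, 7 of 8 tested probes were lower in Hoxa, 7 of 8 in Hoxb, 4 of 6 in Hoxc and 4 of 4 in Hoxd. The median log2 fold change was -2.16 over the tested Hox probes and 0.054 over all probes tested. Because both comparisons share the fibroblast arrays, they are not independent of each other.

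**Figure D2:**
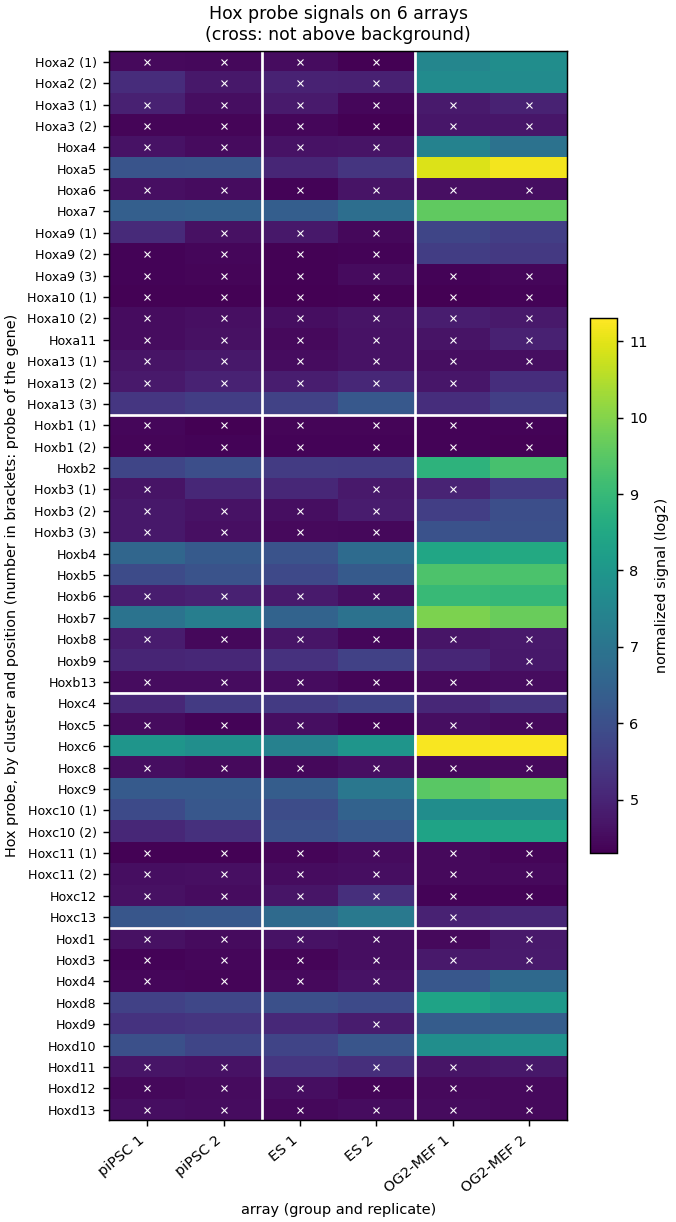
Level of each of the 50 Hox probes on each of the 6 arrays, as log2 normalised intensity. Hoxa5 and Hoxc6 reach levels above 10 in OG2-MEF, while no tested Hox probe reaches 8 in piPSC or ES.

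Among the anterior genes, Hoxa2, which patterns the second branchial arch and the hindbrain, had 2 probes. The first (ILMN_2618302) read 4.49 and 4.44 in piPSC and 4.53 and 4.32 in ES, against 7.50 and 7.74 in OG2-MEF. None of the piPSC and ES arrays was above background for it, so it was at least 6.29-fold lower in piPSC and at least 5.49-fold lower in ES (adjusted p = 2.3e-05 and 1.8e-05, limma). The second (ILMN_2874270) read 5.18 and 4.75 in piPSC and 4.97 and 4.94 in ES, against 7.68 and 7.69 in OG2-MEF. That probe was 6.58-fold lower in piPSC (log2 fold change -2.72 ± 0.17, SE). It was above background on no ES array and was at least 5.75-fold lower in ES. Hoxb2, which acts in the hindbrain, read 5.76 and 5.99 in piPSC and 5.52 and 5.50 in ES, against 8.83 and 9.26 in OG2-MEF. It stayed above background in every group and was 8.99-fold lower in piPSC (adjusted p = 4.3e-05) and 11.6-fold lower in ES (adjusted p = 2.6e-05).

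Hoxb3, a neighbour of Hoxb2 with a role in the hindbrain and neck, gave weaker signals on 3 probes. One (ILMN_3150064) read 4.75 and 4.58 in piPSC and 4.49 and 4.45 in ES, against 6.06 and 6.01 in OG2-MEF, at least 2.1-fold lower in piPSC. Another (ILMN_3071262) read 4.76 and 4.63 in piPSC and 4.55 and 4.84 in ES, against 5.59 and 5.97 in OG2-MEF, at least 1.76-fold lower in piPSC. Both were called lower. Both calls in piPSC were lost with the authors' matrix, where the log2 fold changes were -0.93 and -0.72, with an offset of 50 (-0.76 and -0.58) and in a test against 2-fold. That of ILMN_3071262 was also lost without OG2-MEF replicate 2 (-0.9, adjusted p = 0.024). In ES, the call of ILMN_3071262 was lost with the authors' matrix (-0.73), with an offset of 50 (-0.58) and in a test against 2-fold. Its ES value was -0.89 without OG2-MEF replicate 2 and -0.94 without ES replicate 1. The ES call of ILMN_3150064 was lost with an offset of 50 (-0.83). The last probe was above background on 1 array of each group and was not tested.

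The largest single changes were in middle genes. Over tested probes, the median log2 fold change in piPSC was -2.69 at positions 4 to 8, -2.72 at positions 1 to 3 and -1.07 at positions 9 to 13. The tested probes of Hoxa2, Hoxb3, Hoxa4, Hoxb6, Hoxd4 and Hoxa9 entered the test only through OG2-MEF, which favours low values in these medians. Those of Hoxb9 and Hoxc13 entered only through piPSC and ES, which favours the opposite. Hoxa5, needed for lung development and for the neck-to-thorax part of the skeleton, read 6.12 and 6.14 in piPSC and 5.04 and 5.38 in ES, against 10.94 and 11.17 in OG2-MEF. It was 30.4-fold lower in piPSC (log2 fold change -4.93 ± 0.16, adjusted p = 9.4e-06) and 57.6-fold lower in ES (-5.85 ± 0.16, adjusted p = 4.8e-06). Its signal was above background on all 6 arrays, but in ES only narrowly. The dimmest detected probes on the ES arrays lay at 5.03 and 5.29, so the fold in ES rests on values near that limit. Hoxb6, which acts in the thoracic region and in limb bud mesoderm, read 4.87 and 4.93 in piPSC and 4.80 and 4.56 in ES, against 9.03 and 8.96 in OG2-MEF. This probe was above background on no piPSC or ES array and was at least 16.3-fold lower in piPSC and at least 14.3-fold lower in ES. Hoxc6, a thoracic gene and paralogue of Hoxb6, read 7.95 and 7.75 in piPSC and 7.37 and 7.96 in ES, against 11.22 and 11.27 in OG2-MEF. It was 10.6-fold lower in piPSC (adjusted p = 5.6e-05) and 12-fold lower in ES (adjusted p = 4.2e-05), and it remained clearly detected.

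Hoxa4, one of the genes that shape the neck vertebrae, read 4.64 and 4.50 in piPSC and 4.64 and 4.68 in ES, against 7.39 and 6.94 in OG2-MEF. It was at least 4.6-fold lower in piPSC and at least 4.01-fold lower in ES. The paralogue Hoxb4, known for expanding blood stem cells when it is supplied to them, read 6.62 and 6.27 in piPSC and 6.09 and 6.76 in ES, against 8.43 and 8.55 in OG2-MEF. It was 4.12-fold lower in piPSC (adjusted p = 0.00074) and 4.18-fold lower in ES (adjusted p = 0.00061). The paralogue Hoxd4 read 4.42 and 4.39 in piPSC and 4.48 and 4.64 in ES, against 6.21 and 6.68 in OG2-MEF, at least 2.8-fold and at least 2.44-fold lower. Hoxc4, by contrast, read 5.09 and 5.48 in piPSC and 5.50 and 5.70 in ES, against 5.08 and 5.34 in OG2-MEF. These Hoxc4 values overlapped between piPSC and OG2-MEF, with a log2 fold change of 0.08 ± 0.19 (adjusted p = 0.75), and in ES it was 0.39 ± 0.19 (adjusted p = 0.11).

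Hoxb5, which like Hoxa5 acts around the level of the shoulder, read 5.90 and 6.09 in piPSC and 5.84 and 6.29 in ES, against 9.35 and 9.32 in OG2-MEF. It was 10.1-fold lower in piPSC and 9.64-fold lower in ES (adjusted p = 3.6e-05 and 3.3e-05). Hoxa7, active in the thoracic region, read 6.43 and 6.47 in piPSC and 6.40 and 6.82 in ES, against 9.59 and 9.61 in OG2-MEF. It was 8.88-fold lower in piPSC and 7.92-fold lower in ES. Its paralogue Hoxb7 read 6.96 and 7.29 in piPSC and 6.54 and 6.94 in ES, against 9.91 and 9.71 in OG2-MEF, 6.44-fold and 8.4-fold lower. Hoxd8 read 5.64 and 5.79 in piPSC and 6.02 and 5.87 in ES, against 8.36 and 8.09 in OG2-MEF, 5.69-fold and 4.86-fold lower. In these 4 genes every array was above background.

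In the posterior part of the clusters the changes were more mixed. Hoxc9, which marks thoracic motor neurons, read 6.29 and 6.27 in piPSC and 6.37 and 7.08 in ES, against 9.51 and 9.68 in OG2-MEF. It was 9.97-fold lower in piPSC (adjusted p = 9.7e-05) and 7.32-fold lower in ES (adjusted p = 0.00014). Hoxd9, which acts in the limb and lumbar region, read 5.33 and 5.37 in piPSC and 5.12 and 4.83 in ES, against 6.33 and 6.37 in OG2-MEF. Its 2-fold lower level in piPSC (log2 fold change -1.0 ± 0.14, adjusted p = 0.0014) sat at the fold threshold, and the call was lost without piPSC replicate 1 (-0.99) and without OG2-MEF replicate 2 (-0.98). It was also lost with the authors' matrix (-0.69), with an offset of 50 (-0.63) and in a test against 2-fold. The call in ES, at -1.37, was lost with the authors' matrix (-0.93), with an offset of 50 (-0.83) and in a test against 2-fold. Hoxd10, active in the lumbar cord and the limb, read 6.02 and 5.76 in piPSC and 5.74 and 6.14 in ES, against 7.77 and 7.86 in OG2-MEF, 3.79-fold and 3.66-fold lower.

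Hoxa9, a regulator of blood progenitors and the lumbar region, had 3 probes that gave 3 outcomes. The first (ILMN_1258462) read 5.13 and 4.62 in piPSC and 4.75 and 4.46 in ES, against 5.76 and 5.61 in OG2-MEF. It had no call in piPSC (log2 fold change -0.81 ± 0.21, adjusted p = 0.016) and was above background on no ES array, where it was at least 1.44-fold lower (adjusted p = 0.0045). The call there rested on the fitted value of -1.08, which is no bound. This ES call was lost with the authors' matrix (-0.76), with an offset of 50 (-0.56) and in a test against 2-fold. Without piPSC replicate 1 the piPSC value was -1.06 and was called, and without ES replicate 2 the ES value was -0.93 and was not. The second (ILMN_2645155) read 4.37 and 4.41 in piPSC and 4.34 and 4.37 in ES, against 5.57 and 5.47 in OG2-MEF, at least 1.47-fold and at least 1.29-fold lower. It was called lower in both. The piPSC call was lost with the authors' matrix (-0.96), with an offset of 50 (-0.55) and in a test against 2-fold. The ES call was lost with an offset of 50 (-0.56) and in a test against 2-fold. The last was above background on no array.

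Hoxc10, a gene of lumbar motor neurons and hindlimb, had 2 probes that agreed in direction but not in size. One (ILMN_2836888) read 5.07 and 5.26 in piPSC and 6.0 and 6.23 in ES, against 8.35 and 8.40 in OG2-MEF. It was 9.24-fold lower in piPSC (adjusted p = 2e-05) and 4.78-fold lower in ES (adjusted p = 5.2e-05). The other (ILMN_2836885) read 5.86 and 6.19 in piPSC and 5.92 and 6.5 in ES, against 7.72 and 7.67 in OG2-MEF, 3.17-fold and 2.8-fold lower. Hoxb9, a thoracic gene, had no call: it read 5.03 and 5.07 in piPSC and 5.31 and 5.66 in ES, against 5.04 and 4.75 in OG2-MEF, with log2 fold changes of 0.15 ± 0.18 in piPSC (adjusted p = 0.49) and 0.59 ± 0.18 in ES (adjusted p = 0.024).

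Of the genes at position 13, which act in digits, genitals, hair and tail, Hoxa13 and Hoxc13 could be tested. Hoxc13, known for its role in hair and nail formation, read 6.18 and 6.22 in piPSC and 6.71 and 7.14 in ES, against 4.97 and 5.06 in OG2-MEF, where 1 of 2 arrays was above background. It was 2.27-fold higher in piPSC (log2 fold change 1.19 ± 0.17, adjusted p = 0.0015) and 3.75-fold higher in ES (1.91 ± 0.17, adjusted p = 0.00018). No Hox probe other than this one was called higher in either comparison. The piPSC call fell below 2-fold without background correction (0.79, adjusted p = 0.0033) and with a larger offset (0.70, adjusted p = 0.0047). The testable probe of Hoxa13 read 5.41 and 5.56 in piPSC and 5.69 and 6.23 in ES, against 5.22 and 5.61 in OG2-MEF, and neither comparison passed (adjusted p = 0.82 and 0.075). Its 2 other probes, and the probes of Hoxb13 and Hoxd13, were too dim to test.

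**Figure D3:**
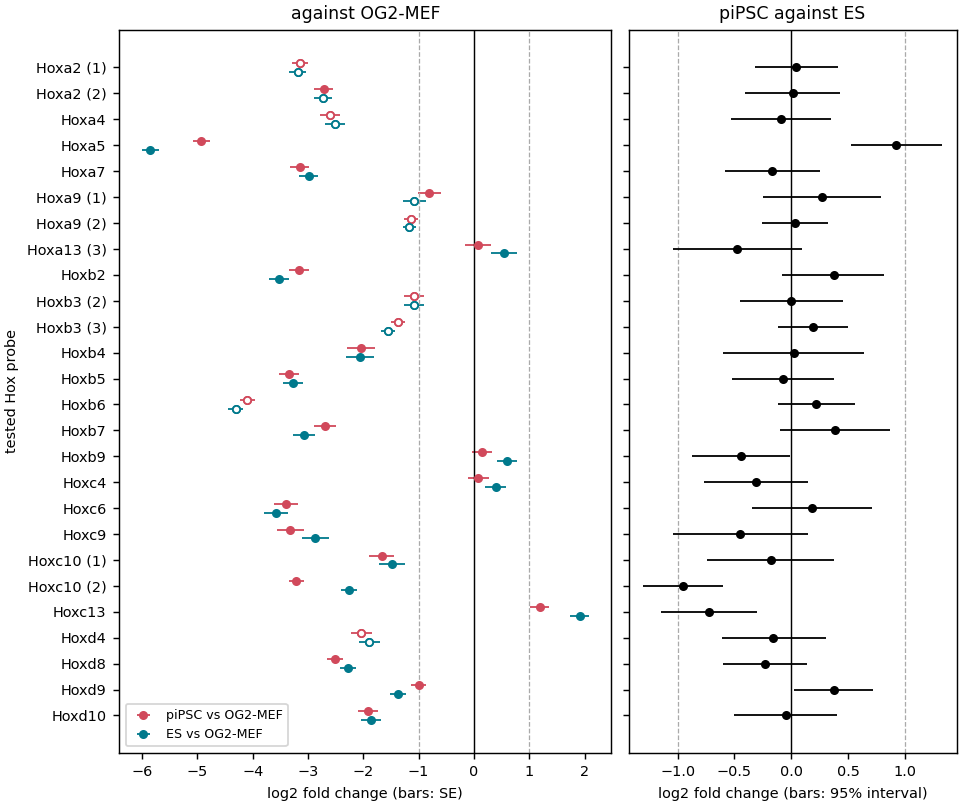
Log2 fold changes of the 26 tested Hox probes for piPSC and ES against OG2-MEF (left, bars are SE) and for piPSC against ES (right, bars are 95% intervals), with dashed lines at 2-fold. Open symbols mark fitted values where the dimmer group was above background on no array, which are not bounds. Hoxa5 lies lowest at -4.93 and -5.85, Hoxc13 is to the right of 0 in both, and all differences between piPSC and ES lie between -0.95 and 0.92.

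No Hox probe met the call between piPSC and ES, where 10.8% of all probes did, 6.9% as higher and 3.94% as lower in piPSC. The median difference was -0.03 over the 26 tested Hox probes and -0.125 over all probes tested. In 23 of the 26 the difference was smaller than 0.5 log2 units, and in 21 the whole 95% interval lay within 1 log2 unit of 0. Those intervals had half-widths of 0.29 to 0.61. Of the 16 probes above background on both arrays of piPSC and of ES, 11 had their whole interval within 1 log2 unit, so for the others a 2-fold difference was within reach of the error. At an unadjusted p under 0.05 there were 5 Hox probes, and at an adjusted p under 0.05 there were 3, where 27.7% of all probes were. That count of 3 was 0 without either piPSC array, 2 without either OG2-MEF array, 9 without ES replicate 1 and 6 without ES replicate 2.

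Of those 3, Hoxa5, near the limit of detection in ES, was higher in piPSC than in ES by 0.92 log2 units (95% interval 0.52 to 1.32, adjusted p = 0.014). It passed 2-fold without ES replicate 2, at 1.09 (adjusted p = 0.00049), and missed the p threshold without piPSC replicate 1, at 0.93, and without piPSC replicate 2, at 0.91 (adjusted p = 0.1 for both). Hoxc10 was lower in piPSC by its probe ILMN_2836888, at -0.95 (-1.30 to -0.60, adjusted p = 0.0095), and passed 2-fold without ES replicate 1, at -1.07 (adjusted p = 0.00017). Without piPSC replicate 1 it was -0.86 (adjusted p = 0.089) and without piPSC replicate 2 it was -1.04 (adjusted p = 0.059). Its other probe did not show this, at -0.18 (-0.74 to 0.37, adjusted p = 0.56). Hoxc13 was lower in piPSC than in ES, at -0.72 (-1.15 to -0.30, adjusted p = 0.031). Without any 1 of the piPSC or OG2-MEF arrays its adjusted p lay between 0.084 and 0.16.

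Some Hox probes also gave signal above background in the pluripotent cells. Of the Hox probes called lower in piPSC, 12 were above background on all 6 arrays, and in them the normalised signal, offset included, was a median of 10.6% and 11.7% of the OG2-MEF mean on the piPSC arrays and 10.8% and 16% on the ES arrays. The lowest share was that of Hoxa5, at 3.25% and 3.3% in piPSC and, near the limit of detection, 1.54% and 1.94% in ES. The highest shares were those of Hoxd10, at 28.9% and 24.1% in piPSC and 23.7% and 31.4% in ES, and of the ILMN_2836885 probe of Hoxc10, at 28% and 35.4% in piPSC and 29.2% and 43.7% in ES. The offset of 16 stands in both signals, which raises the share of a dim probe. The fibroblast marker list had 12 of 13 genes on the array, with 11 above background on every array. Over all 12, the medians were 21.4% and 20.2% in piPSC and 19.5% and 22% in ES on the same scale. These 12 include Postn, above background on no array, and Lum, which was called higher. The Hox probes were chosen for being called lower and the markers were not, so their medians do not compare like with like. The summed signal of the marker list was 14650 and 13680 in piPSC and 12500 and 10710 in ES, against 67440 and 61470 in OG2-MEF. The part of fibroblasts, feeders included, in the Hox signal of piPSC and ES was not tested.

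**Figure D4:**
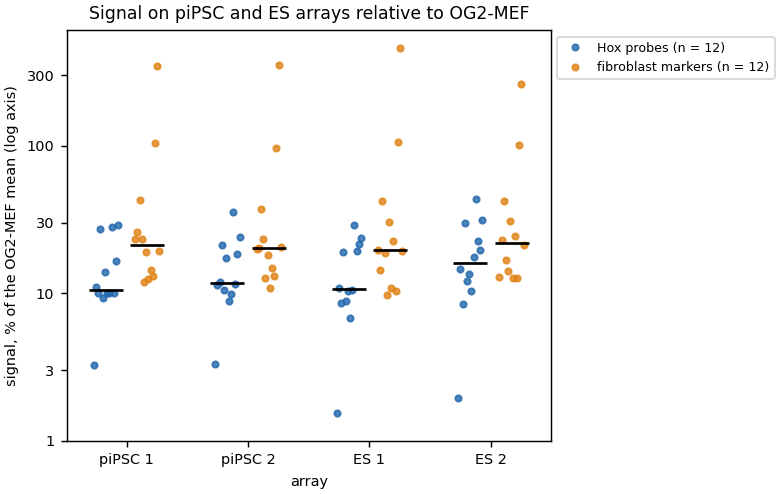
Signal on each piPSC and ES array as a percent of the OG2-MEF mean, for the 12 Hox probes above background on all 6 arrays and called lower in piPSC, and for 12 fibroblast markers, on a log axis with lines at the medians. The Hox probes range from 1.54% to 43.7%, and the fibroblast markers centre near 20% with a few far higher.

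Genes that act with or on the Hox clusters were read from fixed lists, with 1 probe per gene, that of the highest mean. Their counts stand beside 19% higher and 21% lower over all probes in piPSC, and 23.2% higher and 23.4% lower in ES, against OG2-MEF. Hox proteins bind DNA together with cofactors of the TALE class. Of 7 tested TALE genes, 2 were lower and 1 higher in piPSC, and 3 lower and 1 higher in ES, than in OG2-MEF. The count lower in piPSC ranged from 1 to 4 over the alternatives. Meis1, a Hox partner in limb and blood, read 6.94 and 7.02 in piPSC and 6.8 and 7.05 in ES, against 10.21 and 10.31 in OG2-MEF, 9.71-fold and 10.1-fold lower (adjusted p = 1.8e-05 and 1.4e-05). Pbx3 read 5.38 and 5.69 in piPSC and 4.89 and 4.68 in ES, against 6.79 and 6.84 in OG2-MEF, 2.42-fold and at least 3.15-fold lower. Meis2 differed between the pluripotent groups: it read 9.49 and 9.52 in piPSC and 8.02 and 8.23 in ES, against 10.27 and 10.19 in OG2-MEF. It was 2.61-fold higher in piPSC than in ES (adjusted p = 0.0025). Pknox2 was higher than in OG2-MEF, 2.09-fold in piPSC and 2.7-fold in ES.

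Among the factors that switch Hox genes on along the axis, Cdx2, a homeobox factor of the posterior embryo and the trophoblast, was the 1 called gene of 6 tested. It read 5.85 and 5.70 in piPSC and 7.92 and 8.10 in ES, against 4.48 and 4.48 in OG2-MEF. It was at least 1.7-fold higher in piPSC and at least 8.04-fold higher in ES than in OG2-MEF, and 4.72-fold lower in piPSC than in ES (adjusted p = 0.00061). Probes of lower mean gave other calls for 2 genes of this list: one of Cdx1 was at least 3.28-fold higher in ES, and one of Rarg, a retinoic acid receptor, was 5.03-fold lower in ES, than in OG2-MEF. Evx1, a homeobox gene next to Hoxa13 at the posterior end of Hoxa, read 8.59 and 8.50 in piPSC and 7.12 and 7.38 in ES, against 4.64 and 4.58 in OG2-MEF. It was at least 11.7-fold higher in piPSC and at least 4.75-fold higher in ES, and 2.46-fold higher in piPSC than in ES (adjusted p = 0.0036). Evx1 was higher in the cells in which most Hoxa probes tested were lower.

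Polycomb genes, whose products repress Hox clusters, were called higher more often than lower in the pluripotent cells. Of 13 tested, 9 were higher and 2 lower in piPSC, and 8 higher and 2 lower in ES, than in OG2-MEF. Over the alternatives, 6 to 9 were higher in piPSC and 5 to 10 in ES (10 without ES replicate 2), and 1 to 2 were lower in each. Cbx7, the subunit of the first Polycomb complex typical of ES cells, read 9.38 and 9.55 in piPSC and 9.71 and 10.18 in ES, against 4.66 and 4.64 in OG2-MEF. It was at least 22.1-fold higher in piPSC and at least 30.7-fold higher in ES. Its relative Cbx8 was 4.12-fold lower in piPSC and 2.85-fold lower in ES, and Bmi1 was 2.36-fold and 3.23-fold lower. Mtf2 was 7.84-fold and 9.43-fold higher, and Phc1 was 5.97-fold and 4.33-fold higher. Eed, a core subunit of the enzyme that methylates lysine 27, was 6.11-fold and 6.78-fold higher. Ezh2, its catalytic subunit, was called higher in piPSC than in ES (log2 fold change 1.44, adjusted p = 0.037), which was lost without ES replicate 2. A further of its probes gave -0.74 there.

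Genes of the opposing trithorax complexes and of lysine 27 demethylases were higher for 4 of 8 tested in piPSC and in ES, with 0 lower in piPSC and 1 lower in ES. Over the alternatives, 4 to 6 were higher in piPSC and 4 to 7 in ES. Wdr5, Ash2l and Dpy30, shared subunits of the complexes that methylate lysine 4 of histone H3, were 6.96-fold, 3.79-fold and 6.55-fold higher in piPSC and 5-fold, 4.93-fold and 7.47-fold higher in ES. Another tested probe of Ash2l had no call, at log2 fold changes of 0.85 and 0.91. Kdm6b, a lysine 27 demethylase, was 2.57-fold lower in ES (adjusted p = 0.00092), and its other tested probe gave 0.04.

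**Figure D5:**
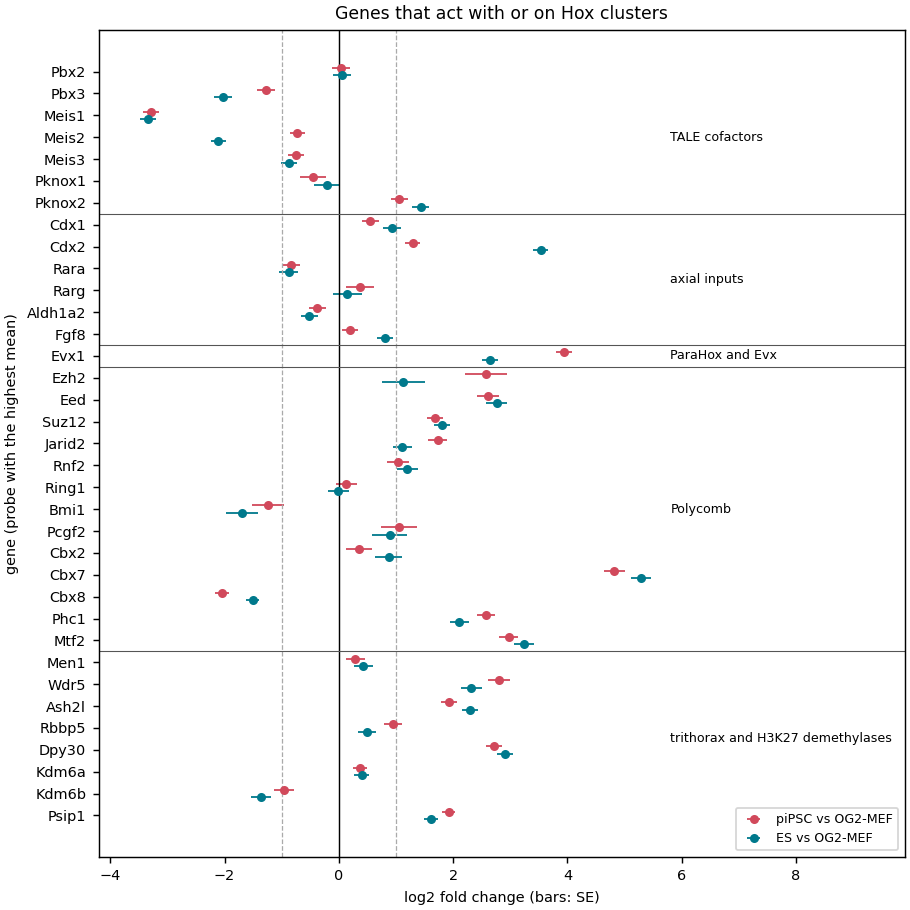
Log2 fold changes with standard errors for tested genes that act with or on Hox clusters, in piPSC and ES against OG2-MEF, by list, with dashed lines at 2-fold. Values for genes dim in OG2-MEF (Cdx2, Evx1, Cbx7, Jarid2, Fgf8) are fitted and no bounds. The same holds for genes dim in piPSC and ES (Rara, Aldh1a2) and for Pbx3 in ES. Cbx7, Evx1 and Mtf2 lie far to the right, Meis1 and Cbx8 to the left.

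Genes beside the clusters were tested in the same way. Of 13 tested flanking genes, 3 were higher and 0 lower in piPSC, and 1 higher and 1 lower in ES, than in OG2-MEF. The counts higher ranged from 1 to 6 in piPSC and from 1 to 5 in ES over the alternatives, and 3 of 13 is close to the 19% over all probes. Snx10, a sorting nexin near the Hoxa cluster, read 10.92 and 10.87 in piPSC and 11.37 and 11.42 in ES, against 8.69 and 8.64 in OG2-MEF, 4.68-fold and 6.64-fold higher. Skap2, which lies between Snx10 and Hoxa, had a log2 fold change of 0.94 in piPSC and 1.00 in ES, neither called. Mtx2, next to Hoxd1, had -0.45 and -0.34, near the limit of detection. The call of lower Hnrnpa1 in ES rested on ES replicate 2, which read 8.17 against 10.33 in ES replicate 1, and its other probe was 2.4-fold higher in ES than in OG2-MEF.

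Other factors that give position in the embryo were mostly dim: 3 of the 14 on the array were tested. Otx2, which specifies the forebrain and is also expressed in epiblast, read 9.23 and 9.19 in piPSC and 9.80 and 9.97 in ES, against 4.54 and 4.51 in OG2-MEF, at least 18.5-fold and at least 29.4-fold higher. Tbx18, a mesenchymal T-box factor, read 4.93 and 4.74 in piPSC and 4.83 and 5.01 in ES, against 6.15 and 6.47 in OG2-MEF, at least 2.54-fold and at least 2.22-fold lower.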

How the data were processed

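Total RNA (500 ng per sample) was labelled and hybridised to Illumina bead arrays, per the labels' protocols. The deposited table held, per the file headers, a raw intensity and a detection p-value per probe and array, not normalised. Log2 values made up the authors' deposited matrix; quantile normalisation of log2 intensities without background correction gave the same values within 0.0012. Scanner software was not given in the sources used here. All value columns were mapped to samples by name.

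Background correction was by normexp, with detection p-values and an offset of 16, and was followed by quantile normalisation and log2 (limma's neqc; limma 3.58.1, R 4.3.3). Each of 14533 of the 25697 probes was tested on its own, those whose 2 arrays in some group both had a detection p under 0.05. One fit of 3 group means over all 6 arrays left 3 residual degrees of freedom, with 2.92 from the prior, and was followed by Benjamini-Hochberg adjustment within each comparison; adjusted p-values and SE are from this fit. The number of arrays limits the precision. Where a probe was above background on no array of the dimmer group and on both of the brighter, "at least N-fold" sets the brighter mean against a floor: on every dim array, the dimmest detected probe or the probe itself if brighter, averaged. Code was tested on simulated data.

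Members were all probes with symbols of the Hoxa to Hoxd form. Per-array values are given for the 12 called members with the largest change in piPSC, members called against the majority, members above background on both piPSC or both ES arrays, and probes of 1 gene whose calls differ; other genes come from fixed lists, up to 4 called members each. Members, lists and tests were chosen with earlier results of these data known. Genes singled out beyond the rule (Hoxd4, Cbx8, Bmi1, Ezh2, Kdm6b, Cdx1, Rarg, Skap2, Mtx2, Hnrnpa1) were chosen after their values were seen. Deviations of samples with the same replicate number correlated at 0.079 (piPSC and OG2-MEF), 0.004 (piPSC and ES) and 0.253 (OG2-MEF and ES); not every pair was over 0.1, so the numbers were not used as pairs. Alternatives covered the authors' matrix, background, scaling, filters, probe choice, fold threshold, array weights, a replicate block and leaving out each array.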

Additional observations from a re-analysis of the deposited data

How the results depend on the processing

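No called change of a Hox probe turned its direction under the 18 alternatives. The median Hox difference between piPSC and ES was -0.03 in the main fit. Among the 18 alternatives, dropping ES replicate 1 moved this median furthest, to -0.15, which leaves ES replicate 2 as the only ES array. Dropping piPSC replicate 1 gave -0.07. The sign turned, to 0.04, when either ES replicate 2 or piPSC replicate 2 was dropped. Calls of lower expression ranged from 16 (a test against 2-fold, treat) to 22 probes in piPSC and from 17 to 22 in ES, against OG2-MEF. The single probe called higher in piPSC, Hoxc13, was not called (0 probes) with the authors' matrix, with no background correction (which gives the same values as that matrix), with an offset of 50 or with treat; smaller fitted changes follow from the construction of the first 3. With no fold threshold, 2 Hox probes were higher in ES than in OG2-MEF, and 1 was higher and 2 lower in piPSC than in ES. Median scaling called 1 Hox probe higher in piPSC than in ES (Hoxa5, 1.01, adjusted p = 0.0069). The calls that changed among the tested members were those of Hoxa9, Hoxb3, Hoxd9, Hoxc13, the ILMN_2836885 probe of Hoxc10, Hoxb9, Hoxa5 and the other Hoxc10 probe; counting each probe under each alternative, 24 values in piPSC and 19 in ES against OG2-MEF lost the call.

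Over all probes, calls in piPSC against OG2-MEF numbered 9472 with no fold threshold and 3244 with treat, against 5815. In ES against OG2-MEF they numbered 10398 and 4134, against 6765. In piPSC against ES they numbered 4020 and 249, and 920 with an offset of 50 and 832 with 1 probe per gene (fewer probes tested), against 1575. Median scaling moved the median change of all probes to -0.182 in piPSC and -0.166 in ES against OG2-MEF, and the split in piPSC to 2175 higher and 3794 lower, against 2766 and 3049. For piPSC against ES the split was 1003 higher and 572 lower, 835 and 260 with the authors' matrix, and 402 and 430 with 1 probe per gene. No cause was tested.

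Leaving out 1 array at a time gave 19 to 21 Hox probes lower in piPSC, 21 to 22 lower in ES and 1 higher in each, against OG2-MEF. Between piPSC and ES, it gave 0 to 1 higher (Hoxa5, without ES replicate 2) and 0 to 1 lower (Hoxc10, without ES replicate 1). Calls over all probes ranged from 5491 to 5967 in piPSC and from 6361 to 7325 in ES against OG2-MEF and, in piPSC against ES, from 422 (without piPSC replicate 1) to 2969 (without ES replicate 1). A lone array was taken to vary like the other groups.

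With the replicate number as a block, 21 Hox probes were lower and 1 higher in piPSC, 22 lower and 1 higher in ES, and 0 differed between piPSC and ES; all calls numbered 2773 higher and 3057 lower in piPSC, 3374 and 3415 in ES, and 1024 and 570 in piPSC against ES. For the other gene lists, alternatives of the same kinds were chosen after seeing the data, and 670 of the counts stayed within 1.5 times while 86 moved. Dim probes limit what can be seen: 21 Hox probes were above background on no array.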

Other observations

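Some Hox probes outside the tests gave a signal near the limit of detection. Hoxd11, a gene of the distal limb and kidney, read 4.71 and 4.63 in piPSC and 5.41 and 5.24 in ES, against 4.70 and 4.74 in OG2-MEF, and was above background on 1 ES array. Hoxc12, a posterior gene beside Hoxc13, read 4.61 and 4.53 in piPSC and 4.71 and 5.24 in ES, against 4.36 and 4.36 in OG2-MEF, and was above background on no array. When all probes on the array were fitted without a filter (limma), 4 of the 24 untested Hox probes had an adjusted p under 0.05 against OG2-MEF, all under 2-fold. The share of all probes that passed in this fit at any fold was not computed. The count is therefore not read as a result about Hox probes. Fitted differences of such dim probes are no measure of size. Hoxd11 was higher in ES (adjusted p = 0.0043) and not in piPSC (adjusted p = 0.79). Lower were Hoxd3 (adjusted p = 0.015 in piPSC and 0.028 in ES), the ILMN_1237475 probe of Hoxa3 (0.02 in piPSC and 0.014 in ES) and the ILMN_2672443 probe of Hoxa10 (0.043 in piPSC and 0.086 in ES).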
